A study of Mus musculus with 6 samples.

Results

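Trp53 and 9 of its direct target genes (Cdkn1a, Mdm2, Ccng1, Trp53inp1, Bbc3, Bax, Fas, Phlda3, and Eda2r) were compared between control and Sora-treated HCC tumors. They were chosen as well-known p53 targets and found by their exact symbol, and all 10 were among the 26167 genes of the expression tables and among the 16513 genes with enough reads to be tested. RNA came from 6 tumors that grew after subcutaneous injection of Hepa1-6 cells, a mouse hepatoma cell line named Hep1-6 in the sample labels, into female C57BL/6J mice aged 6 to 8 weeks. The control group held 3 tumors, numbered 1, 3, and 4, and no vehicle is named for it. The Sora-treated group held 3 tumors, numbered 2, 3, and 4, from mice that received 10 mg/kg sorafenib (Sora), an inhibitor of several kinases, as ip doses given on days 9, 11, 13, and 15. The tumors are bulk tissue of 1 cell line with the host's immune, stromal, and skin cells, so fewer cells of a type and less RNA per cell cannot be told apart in any value below.

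p53, the protein of Trp53, is a transcription factor that is stabilized by DNA damage and other stress and then activates genes that halt the cell cycle, repair DNA, or start apoptosis. Mdm2 is a ubiquitin ligase that is both a target of p53 and its main inhibitor, so the pair forms a feedback loop. p53 is controlled largely at the level of its protein, and its target mRNAs are often read as a sign of its activity, although most of them also respond to other factors. Liver tumors frequently carry changes in this pathway.

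p53 binds DNA at a pair of half-sites, and this motif was looked for in the RefSeq promoters of GRCm38.p6, which span 250 bases before to 50 bases after each gene start. The half-site consensus is 10 bases long and reads the same on both strands. A pair was counted where both half-sites kept their central C and G, had at most 3 mismatches in all, and lay no more than 1 base apart, so a pair can contain an exact half-site. RefSeq promoters were found for 9 of the 10 genes (12 promoters), Trp53inp1 being the exception. Exact half-sites were present in 5 of these 12 promoters (41.7%) and in 8.36% of all 32851 promoters, and pairs were present in 5 (41.7%) and in 2.82%. Among promoters of the genes tested, the shares were 7.37% and 3.08%. In the gene lists used further below, they were 22.7% and 15.2% for further p53 targets. They were 5.41% and 5.41% for genes that control p53, 5.56% and 0% for partners, and 11.1% and 13.9% for cell cycle genes. The 10 genes were chosen as p53 targets, so these shares are no result about the tumors. These matches describe letters in a short window, and binding of p53 was not measured. The windows of Cdkn1a, Mdm2, and Ccng1 are shown because these genes differed in direction in the comparison below, and the capitals mark half-sites and pairs.
Cdkn1a, chr17:29090729-29091028, plus strand: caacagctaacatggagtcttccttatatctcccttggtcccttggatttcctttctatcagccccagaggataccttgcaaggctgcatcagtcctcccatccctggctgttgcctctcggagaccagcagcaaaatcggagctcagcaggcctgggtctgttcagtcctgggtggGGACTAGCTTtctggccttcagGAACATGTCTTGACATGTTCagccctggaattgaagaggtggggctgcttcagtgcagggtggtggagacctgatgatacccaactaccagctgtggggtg
Mdm2, chr10:117710709-117711008, minus strand: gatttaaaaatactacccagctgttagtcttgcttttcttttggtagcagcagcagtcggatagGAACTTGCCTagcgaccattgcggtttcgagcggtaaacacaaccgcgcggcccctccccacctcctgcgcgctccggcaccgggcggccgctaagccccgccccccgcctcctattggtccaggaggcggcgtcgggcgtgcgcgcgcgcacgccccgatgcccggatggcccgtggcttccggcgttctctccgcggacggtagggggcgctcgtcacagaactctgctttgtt
Ccng1, chr11:40755237-40755536, minus strand: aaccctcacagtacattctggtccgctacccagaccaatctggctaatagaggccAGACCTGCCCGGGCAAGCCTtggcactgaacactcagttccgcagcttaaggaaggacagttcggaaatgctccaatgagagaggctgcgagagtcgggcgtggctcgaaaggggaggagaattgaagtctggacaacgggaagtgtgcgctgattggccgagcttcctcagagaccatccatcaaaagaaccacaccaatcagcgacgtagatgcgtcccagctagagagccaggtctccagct
The pair of Cdkn1a lies 51 to 32 bases before the start of its upstream promoter and has 1 mismatch. The pair of Ccng1 lies 195 to 176 bases before its start and also has 1 mismatch. The Mdm2 window holds a single half-site and no pair. The other pairs follow, with all of their bases in capitals (the spacer of 1 base in Bax included), and had 2 mismatches in Bax and 3 each in Trp53 and Bbc3.
Bax, minus strand of chromosome 7: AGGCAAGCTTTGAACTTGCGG
Trp53, plus strand of chromosome 11: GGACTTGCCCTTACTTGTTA
Bbc3, plus strand of chromosome 7: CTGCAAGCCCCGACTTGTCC
A pair with 1 mismatch stood both before Cdkn1a, whose mean was higher in Sora-treated tumors, and before Ccng1, whose mean was lower. The windows of Fas, Phlda3, and Eda2r, the downstream promoter of Cdkn1a, and the other promoters of Bbc3 held no match.

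Each library had 31073830 to 36205814 counted reads. The counts of Sora-treated tumor 4 were not in the count table used here and were recovered from its FPKM, and counts of calls without this tumor, which rest on deposited counts alone, are given for the 10 genes. Levels are given as CPM, a gene's reads as a share of the TMM-scaled library. The groups were compared by the quasi-likelihood test of edgeR, with p-values adjusted by Benjamini-Hochberg across the 16513 genes, and a gene was called at an adjusted p under 0.05. Values listed by tumor run in the order 1, 3, 4 for control tumors and 2, 3, 4 for Sora-treated tumors. On the first principal component (43.1% of the variance), Sora-treated tumor 3 lay at 2.69, between the control tumors (-20.5 to -11.1) and the other Sora-treated tumors (21.1 and 22.5). The hepatoma markers were present, with Afp at 878 ± 193 CPM in control and 828 ± 27.5 CPM in Sora-treated tumors (SD, n = 3) and of the 8 markers 4 were above and 4 below 0 in log2 fold change (median 0.14). Among them Alb was called lower (log2 fold change -0.55, adjusted p = 0.041, edgeR) and Apoa1 higher (1.03, adjusted p = 0.047, edgeR). Over the whole marker lists, the summed CPM of 8 leukocyte genes was 839 to 946 in control and 688 to 804 in Sora-treated tumors, and that of 6 neutrophil genes was 59.05 to 65.3 and 72.3 to 140.2. The 5 neutrophil genes tested were all above 0 at an unadjusted p under 0.05, and 1 was called (median log2 fold change 0.76). The sum of 7 fibroblast genes was 7595 to 7865 and 5376 to 6767 CPM, and that of 7 keratinocyte genes was 319 to 1080 and 678 to 953 CPM. The red blood cell genes had the largest median shift, with all 5 below 0 at an unadjusted p under 0.05 and 1 called (median log2 fold change -1.17), and their sum was 47.0 to 129 CPM in control and 32.9 to 44.1 CPM in Sora-treated tumors. The 3 tested adipocyte genes of 4 were above 0 (median 0.67) and not called, and the sum of all 4 was 6.17 to 9.95 and 9.21 to 15.2 CPM. The sums of the endothelial genes (176 to 214 and 136 to 192 CPM) and of the skeletal muscle genes (196 to 271 and 233 to 311 CPM) overlapped. No marker of these lists was at 0 in all tumors, and the part of these shifts in the results below was not tested.

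The p53 targets did not move together. Of the 10 genes, 2 were called lower in Sora-treated tumors, Trp53inp1 and Ccng1, and none was called higher, where over all genes tested 1.34% were called lower and 1.94% higher. At an unadjusted p under 0.05, 4 were lower (Trp53inp1, Ccng1, Eda2r, and Fas) and 2 were higher (Mdm2 and Cdkn1a), against 8.69% and 8.53% of all genes. The groups did not overlap for 1 gene that was higher (Mdm2) and 2 that were lower (Ccng1 and Trp53inp1), and over all genes 10.6% were higher and 11.6% lower without overlap. The median log2 fold change of the 10 genes was -0.09, and that of all genes tested was -0.00037. Without Sora-treated tumor 4, none of the 10 was called, and 0.0306% of all genes were (0.00613% lower). Without Sora-treated tumor 3, Mdm2 was called higher beside the same 2 lower genes, and 3.52% of all genes were called higher and 3.5% lower. Without control tumor 1, control tumor 4, or Sora-treated tumor 2, none of the 10 was called, and 0.362%, 0.362%, and 0.209% of all genes were called lower, and without control tumor 3 only Trp53inp1 was, beside 0.656% of all genes. DESeq2 called the same 2 genes lower and Mdm2 higher, beside 3.71% and 4.0% of all genes, as did edgeR without a filter on low counts (2.28% and 2.26%). limma called none of the 10 on log2(FPKM + 1) or log2(FPKM + 0.1), where it called 0.504% and 0.138% of all genes lower.

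**Figure D1:**
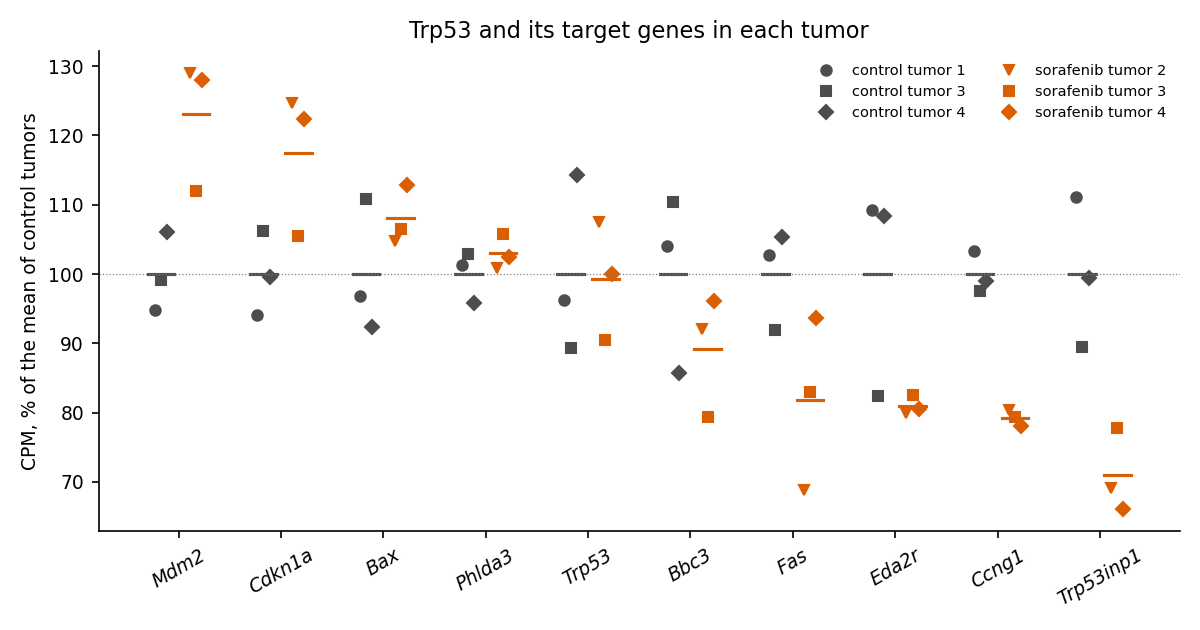
CPM of Trp53 and its 9 targets in each tumor as a percentage of the mean of the 3 control tumors, with control tumors in gray, Sora-treated tumors in orange, a marker shape for each tumor number, and bars at the group means. Mdm2 and Cdkn1a lie at the left with means of 123% and 117%, and Ccng1 and Trp53inp1 lie at the right with 79.3% and 71.0%.

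Trp53 itself was not called, and its means were close, at 157 ± 20.3 CPM in control and 156 ± 13.4 CPM in Sora-treated tumors (SD, n = 3). It was at 151, 140.3, and 179 CPM in the control group and at 169, 142, and 157 CPM in the Sora group. The Sora-treated values all lay inside the range of the controls. The log2 fold change was -0.01 (95% interval -0.23 to 0.21, adjusted p = 0.98, edgeR), and the interval spans 0.850-fold to 1.16-fold.

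Mdm2, the inhibitor of p53, was at 145, 152, and 162 CPM in the control group and at 198, 171, and 196 CPM in the Sora group. Every Sora-treated tumor lay above every control tumor. The log2 fold change was 0.30 (standard error 0.08, 95% interval 0.12 to 0.48), or 1.23-fold, and it missed the threshold (adjusted p = 0.075, edgeR). DESeq2 with no limit on the fold called it (adjusted p = 0.014), and so did edgeR without Sora-treated tumor 3 (0.023), whereas without Sora-treated tumor 4 the adjusted p was 0.27.

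Ccng1 encodes cyclin G1, a target that recruits protein phosphatase 2A to Mdm2, and it is thus a second arm of the feedback. It was at 342, 323, and 328 CPM in the control group and at 266, 263, and 259 CPM in the Sora group. The groups were far apart beside their spread, 331 ± 9.90 against 263 ± 3.80 CPM (SD, n = 3). Ccng1 fell by 20.7% (log2 fold change -0.33, standard error 0.07, 95% interval -0.49 to -0.18, adjusted p = 0.029, edgeR). The fold change stayed between -0.35 and -0.31 with any tumor left out, but the adjusted p was then 0.029 to 0.13 and under 0.05 only without Sora-treated tumor 3.

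Cdkn1a encodes p21, the inhibitor of cyclin-dependent kinases through which p53 halts the cell cycle. It was at 149, 168, and 157 CPM in the control group and at 197, 167, and 193 CPM in the Sora group. Sora-treated tumor 3 lay just below control tumor 3, so the groups overlapped, whereas the other Sora-treated tumors lay above all controls. The log2 fold change was 0.23 (standard error 0.09, 95% interval 0.04 to 0.42, adjusted p = 0.18, edgeR), and with 1 tumor left out it ranged from 0.19 to 0.30, with the smallest adjusted p (0.053) without Sora-treated tumor 3.

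Trp53inp1 encodes a nuclear and autophagic stress protein that aids the phosphorylation of p53 and the choice of apoptosis. It was at 199, 160.4, and 178 CPM in the control group and at 124, 139, and 118 CPM in the Sora group. No Sora-treated tumor reached the lowest control. It fell from 179 ± 19.5 to 127 ± 10.9 CPM (SD, n = 3), the largest change of the 10 genes (log2 fold change -0.49, standard error 0.10, 95% interval -0.71 to -0.28, adjusted p = 0.023, edgeR). The call was kept without control tumor 3 (adjusted p = 0.026) and without Sora-treated tumor 3 (0.010) and lost without each of the other 4 tumors (0.070 to 0.13, edgeR).

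Bax and Bbc3 act in the mitochondrial arm of apoptosis, Bax as a pore-forming protein of the outer membrane and Bbc3 (PUMA) as a BH3-only protein that frees it. Bax was at 80.2, 91.7, and 76.5 CPM in the control group and 86.7, 88.2, and 93.4 CPM in the Sora group. Bbc3 was at 10.2, 10.8, and 8.42 CPM in the control group and 9.05, 7.80, and 9.45 CPM in the Sora group. Both overlapped between the groups. The log2 fold change was 0.11 for Bax (95% interval -0.07 to 0.30, adjusted p = 0.55, edgeR). For Bbc3, which had 262 to 353 reads per tumor, it was -0.16 with a wide interval of -0.49 to 0.16 (adjusted p = 0.64, edgeR).

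Fas is a death receptor of the TNF receptor family, and Eda2r is a receptor of the same family that binds the A2 form of ectodysplasin. Fas was at 24.6, 22.02, and 25.2 CPM in the control group and at 16.5, 19.9, and 22.5 CPM in the Sora group. Sora-treated tumor 4 lay above control tumor 3, and the other Sora-treated tumors lay below all controls. Its log2 fold change was -0.29 (95% interval -0.55 to -0.03, adjusted p = 0.24, edgeR). Fas is also a gene of leukocytes, and the leukocyte marker Ptprc was at 233 ± 34.4 CPM in control and 184 ± 15.3 CPM in Sora-treated tumors (SD of 3 tumors; log2 fold change -0.35, adjusted p = 0.11, edgeR). Of the 8 leukocyte markers, 7 were below and 1 above 0 (median log2 fold change -0.32), and none was called. At an unadjusted p under 0.05 (edgeR), 5 were lower and 1 was higher, beside 8.69% and 8.53% of all genes. The part of leukocytes in the values of Fas was not tested. Eda2r was at 28.6, 21.6, and 28.3 CPM in the control group and at 20.9, 21.6, and 21.1 CPM in the Sora group. The Sora-treated tumors were almost alike (SD 0.358 CPM), and control tumor 3 lay at their level while the other controls were higher. Its log2 fold change was -0.30 (95% interval -0.56 to -0.05, adjusted p = 0.19, edgeR), and without control tumor 3 it was -0.43 (adjusted p = 0.053, edgeR). One other gene model, Gm18111, overlaps the span of Eda2r in RefSeq, and strand-specific counting is not stated, whereas the other 9 genes overlap none.

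Phlda3 encodes a small protein that competes with Akt for membrane lipids and so restrains Akt. It was at 101, 103, and 95.6 CPM in the control group and at 101, 106, and 102 CPM in the Sora group, and the groups overlapped. Its log2 fold change was 0.04 (95% interval -0.11 to 0.20, adjusted p = 0.80, edgeR), and the interval spans 0.928-fold to 1.14-fold. Phlda3 and Ccng1 varied least of the 10 between tumors of a group, with biological coefficients of variation of 0.073 and 0.072 (percentiles 1.75 and 1.19 of the genes tested).

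**Figure D2:**
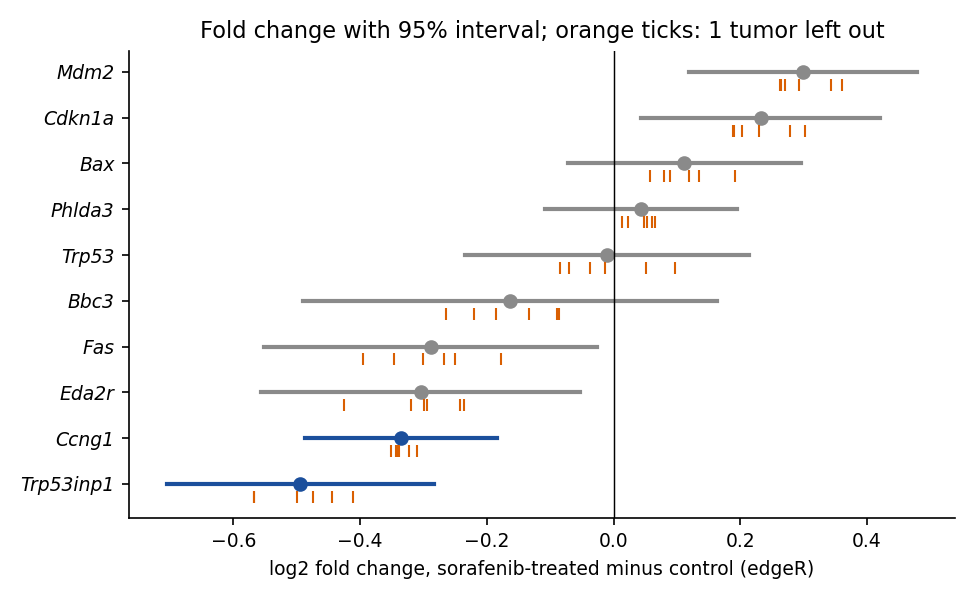
Log2 fold change of each gene (Sora-treated minus control, edgeR) with its 95% interval, in blue where the adjusted p was under 0.05 and in gray otherwise; orange ticks give the 6 values with 1 tumor left out. The intervals of Ccng1, Trp53inp1, Eda2r, and Fas lie below 0, those of Mdm2 and Cdkn1a lie above 0, and the ticks of Trp53 lie on both sides of 0.

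Levels per length (FPKM, the authors' values) put most of these genes among the abundant mRNAs of the tumor. In control tumors the order was Ccng1 (97.3 ± 5.26), Bax (86.6 ± 6.58), Cdkn1a (77.8 ± 2.76), Trp53 (68.8 ± 9.62), and Phlda3 (68.3 ± 2.54 FPKM; SD, n = 3), and neighbors among these 5 overlapped. Trp53inp1 (33.2 ± 4.42), Mdm2 (20.7 ± 1.18), and Fas (9.83 ± 0.913) followed, each apart from its neighbors. Eda2r (3.61 ± 0.628) and Bbc3 (3.27 ± 0.395 FPKM) came last and overlapped. By mean FPKM over the 6 tumors, the 10 genes lay between percentile 41.1 (Bbc3) and percentile 95.9 (Bax) of the genes tested. In Sora-treated tumors Bax (92.9 ± 1.77) and Cdkn1a (90.7 ± 7.45) stood first, and Ccng1 (76.5 ± 2.67 FPKM) came next without overlapping Cdkn1a. Mdm2 (25.3 ± 1.77) and Trp53inp1 (23.3 ± 2.41 FPKM) overlapped there, whereas in control tumors Trp53inp1 was the higher one.

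Ratios of genes within a tumor do not depend on how libraries are scaled, and they were chosen after the single genes were seen, so they are given without a test. The ratio of Mdm2 to Ccng1 in FPKM was 0.195, 0.216, and 0.228 in the control group and 0.342, 0.300, and 0.349 in the Sora group. The groups lay apart, by 0.63 on the log2 scale. That of Cdkn1a to Trp53inp1 was 1.99, 2.79, and 2.36 in the control group and 4.24, 3.19, and 4.35 in the Sora group, a log2 difference of 0.72 without overlap. The ratio of Mdm2 to Trp53 was 0.297, 0.334, and 0.280 in the control group and 0.362, 0.373, and 0.386 in the Sora group, so that there was more Mdm2 mRNA per Trp53 mRNA in each Sora-treated tumor than in any control. The ratio of Cdkn1a to Trp53 overlapped between the groups, at 0.986 to 1.35 and 1.31 to 1.39.

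**Figure D3:**
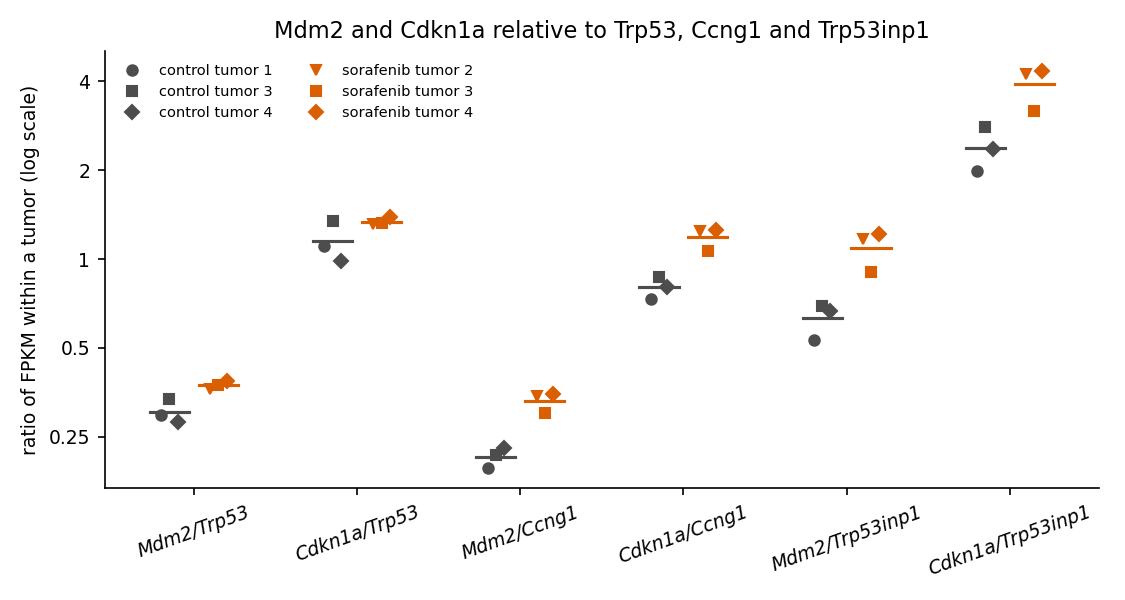
Ratio of FPKM between 2 genes within each tumor on a log axis, with control tumors in gray, Sora-treated tumors in orange, a marker shape for each tumor number, and bars at the group means. The groups are apart for 5 of the 6 ratios shown and overlap for Cdkn1a to Trp53.

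The genes most like Cdkn1a, Mdm2, and Trp53 over the 6 tumors were found among 14112 genes with a mean of at least 1 CPM by the root mean square difference of centered log2(CPM + 1). For Cdkn1a they were 9130401M01Rik (0.017), Tbkbp1 (0.030), and Nomo1 (0.031). For Mdm2 they were Pde4dip (0.020), Suv39h1 (0.026), and Slc25a30 (0.028), and for Trp53 they were Gemin5 (0.023), Smyd5 (0.023), and Atf2 (0.031). Between members, Cdkn1a and Mdm2 were the closest of the pairs with Cdkn1a, Mdm2, or Trp53 (0.065), and Mdm2 and Trp53inp1 were the farthest (0.43). These values are a description over 6 tumors, with no test.

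Among 64 further p53 targets, of which 62 were tested, 4 rose and 1 fell, beside 1.94% and 1.34% of all genes. Gadd45a, which acts in growth arrest and DNA repair, rose from 14.0 ± 1.38 to 21.7 ± 3.27 CPM (SD of 3 tumors; log2 fold change 0.63, adjusted p = 0.026, edgeR). Epha2, a receptor tyrosine kinase, rose from 134 ± 3.72 to 195 ± 24.2 CPM, and Plk3, a stress kinase, from 18.7 ± 2.17 to 27.1 ± 3.07 CPM (each with a log2 fold change of 0.53, adjusted p = 0.018 and 0.037 by edgeR). Gadd45a, Epha2, and Plk3 are known to respond to other factors as well as to p53. Ephx1, microsomal epoxide hydrolase of the liver, fell from 124 ± 5.42 to 80.6 ± 19.9 CPM (log2 fold change -0.62, adjusted p = 0.039, edgeR). Without Sora-treated tumor 4 none of the 5 was called (adjusted p = 0.10 for Epha2, 0.12 for Gadd45a, 0.15 for Plk3, and 0.19 for Ephx1, edgeR).

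The median log2 fold change of these 62 targets was -0.09, and 23 were above 0 and 39 below. At an unadjusted p under 0.05 (edgeR), 8 were higher and 11 lower, beside 8.53% and 8.69% of all genes. The groups did not overlap for 6 targets that were higher and 15 that were lower, beside 10.6% and 11.6% of all genes. The stress-response gene Sesn1 was at 20.5 ± 1.45 CPM in control and 15.6 ± 2.43 CPM in Sora-treated tumors, and Dcxr, a carbonyl reductase, was at 12.1 ± 1.59 and 8.41 ± 1.04 CPM. The groups did not overlap for either, and the log2 fold changes were -0.39 and -0.52 (adjusted p = 0.12 and 0.085, edgeR). Sfn, which encodes 14-3-3 sigma and is abundant in keratinocytes, ranged from 15.9 to 42.9 CPM in control and from 22.7 to 67.9 CPM in Sora-treated tumors (log2 fold change 0.72, adjusted p = 0.41, edgeR). All 7 keratinocyte markers had a log2 fold change above 0 and none was called, and the part of skin in the values of Sfn was not tested.

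Of 30 genes that control p53, 29 were tested, 1 fell, and none rose, beside 1.34% and 1.94% of all genes, with a median log2 fold change of 0.02. Atm, the kinase that activates p53 after double-strand breaks, fell from 69.3 ± 3.49 to 54.04 ± 2.29 CPM (SD of 3 tumors; log2 fold change -0.36, standard error 0.07, adjusted p = 0.029, edgeR). It was at 67.3, 67.2, and 73.3 CPM in the control group and at 52.6, 56.7, and 52.9 CPM in the Sora group, without overlap, and without Sora-treated tumor 4 its adjusted p was 0.14. The checkpoint kinases downstream of Atm and Atr were not called, at log2 fold changes of -0.27 for Chek2 and -0.22 for Chek1 (adjusted p = 0.36 and 0.44, edgeR). Ppp1r13l, an inhibitor of p53 of the ASPP family, was at 13.8 ± 0.584 and 18.0 ± 1.73 CPM without overlap (log2 fold change 0.39, adjusted p = 0.078, edgeR). The p53 relatives Trp63 and Trp73 were low, at 6.15 ± 3.66 and 0.897 ± 0.548 CPM in control and 9.08 ± 3.51 and 1.26 ± 0.0918 CPM in Sora-treated tumors, and overlapped (log2 fold changes of 0.56 and of 0.50, with edgeR's adjusted p = 0.49 and 0.62).

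Of 32 partners of the 10 proteins, 31 were tested and none was called by edgeR (3 higher and 3 lower at an unadjusted p under 0.05, beside 8.53% and 8.69% of all genes). DESeq2 called 2 higher, beside 4.0% of all genes. The median log2 fold change in edgeR was -0.03. Cflar, the inhibitor of caspase-8 downstream of Fas, was at 149 ± 5.58 CPM in control and 193 ± 26.3 CPM in Sora-treated tumors (log2 fold change 0.37, adjusted p = 0.065, edgeR; 0.0058, DESeq2). Bcl2l1, the antagonist of Bax and Bbc3, was at 131 ± 3.997 and 167 ± 22.01 CPM (0.35, adjusted p = 0.076, edgeR; 0.011, DESeq2). For both, every Sora-treated tumor lay above every control tumor. Among the 31 partners, the groups did not overlap for 3 that were higher and 7 that were lower, beside 10.6% and 11.6% of all genes. The lowest log2 fold changes were those of Bcl2 (-0.26) and the retinoblastoma family members Rb1 (-0.24) and Rbl1 (-0.22), with adjusted p from 0.19 to 0.32 (edgeR). Without Sora-treated tumor 3, edgeR called 3 of these partners higher and 1 lower, in a fit that called 3.52% and 3.5% of all genes.

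p21 halts the cell cycle through the DREAM complex, which represses genes of S phase and mitosis, and 40 such genes were tested. None was called by edgeR or DESeq2 (2 higher and 1 lower at an unadjusted p under 0.05 in edgeR, beside 8.53% and 8.69% of all genes). Their median log2 fold change was -0.01, and 18 were above 0 and 22 below, in a range from -0.32 to 0.25. The ends of this range were Nusap1, a mitotic spindle gene, at 35.4 ± 5.95 and 28.4 ± 1.58 CPM, and E2f1 at 39.9 ± 3.79 and 47.3 ± 3.59 CPM (adjusted p = 0.17 and 0.19, edgeR). Tk1 (0.22) and Cenpa (0.08) followed E2f1, and Ccnb2 (-0.23) and Chek1 (-0.22, also among the regulators) followed Nusap1 (adjusted p from 0.17 to 0.68, edgeR).

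**Figure D4:**
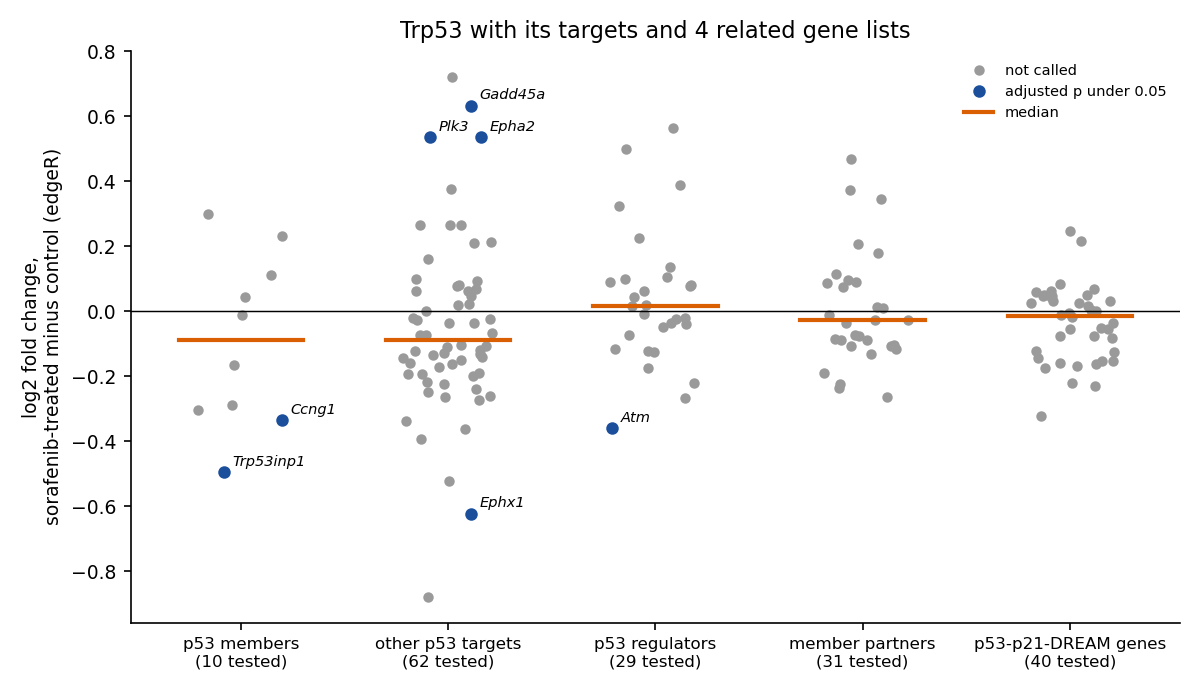
Log2 fold change (Sora-treated minus control, edgeR) of tested genes, for Trp53 with its 9 targets (left), further p53 targets, regulators of p53, partners of the 10 proteins, and cell cycle genes repressed through p21 and DREAM. Blue points with names had an adjusted p under 0.05, gray points did not, and orange bars are the medians of the whole lists, which lie between -0.09 and 0.02; horizontal positions within a list are spread at random.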

How the data were processed

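RNA-seq of 3 control and 3 Sora-treated tumors was analyzed, 1 library per tumor. According to the paper, the authors used Bowtie2 and GRCm38 for alignment; the submitters' processing notes also list GRCm39, fastp, HISAT2, HTSeq, R 3.2.0, and DESeq2. The counting annotation and strand setting are not given in the sources used here. The authors deposited raw counts per gene (5 tumors in the table used here) and FPKM, counts per gene length and library total (6 tumors). Counts of Sora-treated tumor 4 were worked back from FPKM, with gene lengths taken from the other tumors; all 20951 values lay within 0.001 of whole reads, and 342 genes (512 reads) without a known length were left at 0. For each of the other 5 tumors these steps gave back the deposited counts of all genes with a known length. For genes that reached 10 counts in 3 or more tumors, edgeR 4.0.16 (glmQLFit, glmQLFTest, TMM) in R 4.3.3 was used with Benjamini-Hochberg adjustment. The standard error is the log2 fold change divided by the square root of F. The main edgeR fit, DESeq2, and limma were first tested on simulated counts, and the other steps were not tested on simulated data. At 31073830 to 36205814 reads per tumor, Bbc3, the lowest of the 10 genes, had 262 or more reads; p-values measure the spread between 3 tumors of a group, and the labels do not say whether these grew in separate mice. The alternatives were DESeq2 1.42.0, limma 3.58.1 (voom, or log2(FPKM + 1) and log2(FPKM + 0.1)), other scalings and filters, robust=TRUE, a replicate block, and leaving out each tumor. The members and gene lists were chosen with earlier results of these data known. Genes named from the lists were those called and the 3 largest rises and falls with a mean of at least 1 CPM. Promoter sequences and gene spans are from RefSeq (GRCm38.p6). Sco2, Spata18, Trp53rk, and Edar were not analysed here. A few genes of the lists are counted but not reported here or drawn.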

Additional observations from a re-analysis of the deposited data

How the results depend on the processing

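The log2 fold changes of the 10 genes kept their direction in the 19 alternatives, except that of Trp53 without control tumor 4 (0.097) and without Sora-treated tumor 3 (0.051), and its lowest value was -0.088, with the block (-0.085 without control tumor 3). Genes called higher and lower were 619 and 575 by DESeq2, 570 and 577 without a filter, 136 and 62 by limma on log2(FPKM + 1), 21 and 17 on log2(FPKM + 0.1), 0 and 0 on log2(FPKM + 1) of all genes, and 80 and 45 with a replicate block, against 321 and 222. Of the 10 genes, 1 was called higher by DESeq2 and without a filter (Mdm2), and 0 lower in the 3 FPKM fits and with the block. Of the further targets, 0 were called higher on log2(FPKM + 0.1) and on log2(FPKM + 1) of all genes; 3 were called lower by DESeq2 and without a filter, and 0 in the 3 FPKM fits, with the block, and with robust=TRUE. Of the regulators, 2 were called higher by DESeq2 and 1 without a filter, and 0 lower in the 3 FPKM fits and with the block. Of the partners, 2 were called higher by DESeq2 and without a filter, and 1 with robust=TRUE. The block also turned Cenpa (-0.0092). The cause of these changes was not tested. With 1 tumor left out, the ranges were 4 to 574 and 1 to 571 over all genes, 0 to 1 and 0 to 2 for the 10 genes (their median -0.12 to -0.033), 0 to 5 and 0 to 4 for the further targets, 0 to 1 and 0 to 1 for the regulators, and 0 to 3 and 0 to 1 for the partners. The lowest count over all genes came without Sora-treated tumor 4 and the highest without Sora-treated tumor 3. The tumors share only numbers: deviations from the group means correlated at -0.033 and -0.074 over genes in the same-numbered pairs 3 and 4 and at -0.16 to 0.26 in the others. With the block, Ccng1 (log2 fold change -0.32, adjusted p = 0.40) and Trp53inp1 (-0.40, adjusted p = 0.26) were not called. Of the further targets, 3 were called higher with the block, but Epha2 (adjusted p = 0.16), Gadd45a (0.17), and Plk3 (0.24) were not among them and Sfn was (0.042), and Ephx1 (0.0996) and the regulator Atm (0.30) were not called. Other scalings moved the median of all genes by at most 0.011. Of the 10 genes, Bbc3 had the fewest reads and the widest interval.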
